A study of Mus musculus with 20 samples.

Results

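The mRNAs of 8 neuropeptide precursor genes were followed across the amygdala and the hippocampus of mice before and after conditioned fear (CF) learning. They were Nts (neurotensin), Tac1 (substance P and neurokinin A), Tac2 (neurokinin B), Penk (enkephalins), Pdyn (dynorphins), Grp (gastrin-releasing peptide), Trh (thyrotropin-releasing hormone) and Cartpt (the CART peptides). Each was found by its symbol in the array annotation, and each of the 8 genes matched exactly 1 of the 28853 transcript clusters, groups of probes that are each read as 1 value. The genes were chosen by a list of symbols that was drawn up with expression results of these same arrays in view, and no contrast or cut-off for the choice is recorded. The tissue came as micropunches, small cores of preserved brain, from 2-month-old male mice on a C57BL/6 background. WT mice were C57BL/6 and were not littermates of the mutants. DKO mice lack both AC1 and AC8, the adenylyl cyclases that Ca2+ stimulates, and were bred in doxycycline-fed matings of a rescue line. Some DKO animals may have had 1 transgene of that line without the other, tetop-AC8 or CaMKII-tTA, and the labels do not say which animals did. Mice were killed untreated (baseline) or at 0 hr, 1 hr, 48 hr or 1 wk after training with a single foot shock, and the 1 wk mice were first returned to the chamber for a testing trial. RNA of 5 to 10 mice was pooled on each array, with 1 array for each region, genotype and time point and 20 arrays in all.

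A neuropeptide is cut from a longer precursor in the secretory pathway, stored in dense core vesicles and released on strong firing to act on G protein-coupled receptors of nearby cells. Its mRNA is made in restricted sets of neurons, and in the amygdala several precursors mark separate classes of inhibitory or excitatory cells. Transcription of many precursor genes is raised by cAMP, the product of adenylyl cyclases, through the factor CREB and the cAMP response element (CRE). Tac1, Penk and Pdyn are also known as products of striatal projection neurons, which border the amygdala. In bulk tissue such as these punches, fewer cells of a type and less RNA per cell cannot be told apart.

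The mice lack cyclases that feed the CRE, so the 250 bases before the RefSeq start of each gene (GRCm38.p6) were searched for the CRE core, TGACG or its reverse complement CGTCA, and for the AP-1 site TGANTCA, which reads the same on both strands. The search returned a promoter for 6 of the 8 genes and none for Penk and Grp. Entries of the 8 genes on a chromosome that was left out were not searched, while the count over all promoters kept that chromosome. The lack of a result for Penk or Grp is thus not read as the lack of an entry. The core was present for 4 of these 6 genes, Nts, Tac1, Trh and Cartpt, and in 17.8% of all 32851 promoters. The AP-1 site was present for Nts, and in 6.75% of all promoters. The 4 promoters with a core are shown 5′ to 3′ on the strand of the gene, with matches in capitals. A match of letters is a description and not a site of binding, and no binding was measured here. The lines give Nts at chr10:102490419-102490668 (minus strand), Tac1 at chr6:7554811-7555060 (plus strand), Trh at chr6:92244651-92244900 (minus strand) and Cartpt at chr13:99900684-99900933 (minus strand).
Nts: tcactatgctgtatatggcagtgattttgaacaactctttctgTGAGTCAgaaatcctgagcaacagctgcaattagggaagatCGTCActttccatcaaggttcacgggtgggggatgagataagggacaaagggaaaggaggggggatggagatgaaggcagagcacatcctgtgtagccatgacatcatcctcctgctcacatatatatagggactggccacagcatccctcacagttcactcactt
Tac1: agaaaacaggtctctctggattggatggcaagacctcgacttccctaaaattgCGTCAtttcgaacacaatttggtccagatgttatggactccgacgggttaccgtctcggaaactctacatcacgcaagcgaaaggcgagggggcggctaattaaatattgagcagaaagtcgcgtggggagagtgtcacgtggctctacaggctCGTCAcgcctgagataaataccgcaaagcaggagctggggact
Trh: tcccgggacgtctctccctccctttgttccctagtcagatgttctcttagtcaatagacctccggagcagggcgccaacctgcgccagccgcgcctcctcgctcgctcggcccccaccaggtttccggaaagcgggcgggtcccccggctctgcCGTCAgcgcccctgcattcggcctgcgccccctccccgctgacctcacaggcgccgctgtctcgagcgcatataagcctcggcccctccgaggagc
Cartpt: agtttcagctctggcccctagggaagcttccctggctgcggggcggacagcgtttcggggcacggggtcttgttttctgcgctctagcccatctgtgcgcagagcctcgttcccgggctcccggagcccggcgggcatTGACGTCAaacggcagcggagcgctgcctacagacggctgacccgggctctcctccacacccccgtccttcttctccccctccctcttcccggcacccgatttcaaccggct
Counted from the start of transcription, the Nts core lay at -166 to -162 and its AP-1 match at -207 to -201. In Tac1 the cores lay at -197 to -193 and at -43 to -39, and in Trh at -96 to -92. In Cartpt both matches overlap, at -112 to -108 and at -109 to -105, and together spell the full palindromic CRE.

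The deposited values are log2 RMA values, and all levels below are on that scale, where a difference of 1 is a doubling. The medians of the 20 arrays lay between 6.64 and 6.83, and no pair of arrays held identical values. The Adcy8 level was 6.94 to 7.26 in WT and 5.46 to 5.89 in DKO amygdala, and 7.14 to 7.66 in WT and 5.22 to 5.79 in DKO hippocampus, so the targeted gene followed the labels on every array. Adcy1 likewise lay lower on every DKO array than on any WT array of the same region. All 8 genes of a list of amygdala markers passed the test as higher in the amygdala, and of 12 measured hippocampus markers 9 passed as lower and 1 as higher there. Among all transcript clusters 8.78% passed as higher in the amygdala and 17.7% in either direction. Both marker lists were drawn up with results of these arrays known. Amygdala and hippocampus pools of the same genotype and time may stem from the same mice, which the methods do not state. The replicates in the tests are arrays of different time points or groups, each a pool, so p-values measure the spread between these arrays.

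Every one of the 8 precursors was higher in the amygdala than in the hippocampus, by 1.37-fold for Trh to 4.65-fold for Nts on the means of 10 arrays. The genes were picked with results of these arrays known, so the regional values are a description and carry no p here. Each of the 8 passed the regional limit (limma, adjusted p of 0.05), which 17.7% of all transcript clusters passed in either direction and 8.78% as higher in the amygdala, and nothing is read from that count. For 6 of the 8, every amygdala array lay above every hippocampus array, which held for 1.81% of all transcript clusters. The exceptions were Pdyn and Trh, which overlapped.

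**Figure D1:**
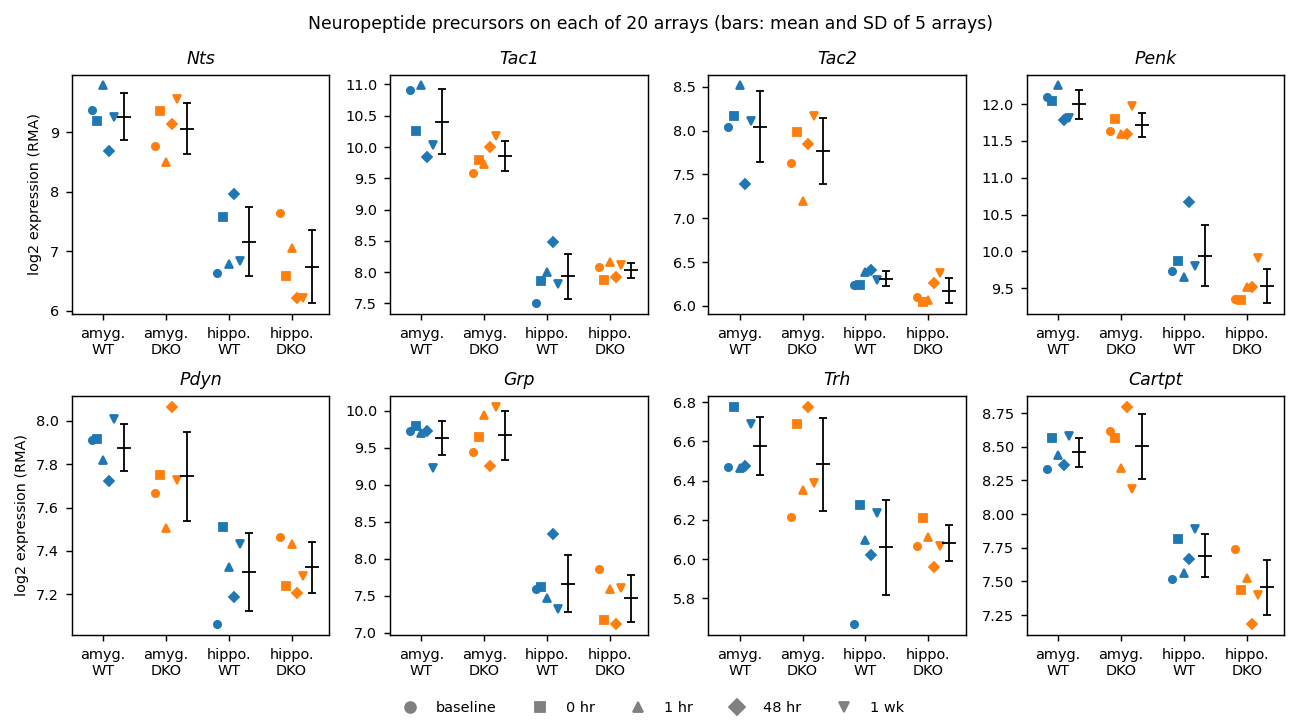
Log2 expression (RMA) of each precursor on the 20 arrays, by region and genotype, with WT in blue and DKO in orange, a symbol for each time point, and the mean and SD of the 5 arrays of a group in black. The amygdala groups sit above the hippocampus groups in all 8 panels, the overlap is confined to Pdyn and Trh, and WT and DKO arrays of a region overlap in each panel.

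Neurotensin is a peptide known for its interplay with dopamine, and neurons of the central amygdala make it. In WT amygdala, from baseline through 0 hr, 1 hr and 48 hr to 1 wk, Nts measured 9.39, 9.19, 9.79, 8.69 and 9.26 (mean 9.26 ± 0.40, SD, n = 5). In DKO amygdala the values in the same order were 8.76, 9.36, 8.50, 9.14 and 9.56 (9.06 ± 0.43, n = 5). The genotypes overlapped widely, and the lowest WT array was the 48 hr array. In the hippocampus Nts read 6.63, 7.57, 6.78, 7.97 and 6.83 in WT (7.16 ± 0.58, n = 5). It read 7.65, 6.57, 7.05, 6.20 and 6.21 in DKO (6.74 ± 0.62, n = 5). The hippocampal levels of Nts had the largest SD among the 8 precursors, with the high WT arrays at 0 hr and 48 hr and the high DKO array at baseline. The regional difference was 2.22 ± 0.192 (SE).

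The tachykinin precursors are Tac1, whose peptides act mainly on Tacr1, and Tac2, whose peptide acts mainly on Tacr3. Tac1 in WT amygdala stood at 10.91, 10.26, 10.98, 9.84 and 10.04 from baseline to 1 wk (mean 10.41 ± 0.52, SD, n = 5). In DKO amygdala it stood at 9.58, 9.79, 9.73, 10.00 and 10.18 (9.86 ± 0.24, n = 5). The WT arrays at baseline, 0 hr and 1 hr lay above all DKO arrays, and those at 48 hr and 1 wk lay among them. Hippocampal Tac1 was 7.50, 7.86, 8.005, 8.49 and 7.81 in WT (7.93 ± 0.36, n = 5), and stayed between 7.87 and 8.15 in DKO (8.03 ± 0.12, n = 5). The regional difference of Tac1 was 2.15 ± 0.130 (SE).

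Tac2 in WT amygdala was 8.04, 8.17, 8.52, 7.39 and 8.11 (8.05 ± 0.41, n = 5), with the 48 hr array lowest. In DKO amygdala it was 7.62, 7.98, 7.20, 7.85 and 8.17 (7.77 ± 0.37, n = 5), with the 1 hr array lowest. In the hippocampus Tac2 moved little, between 6.24 and 6.41 in WT and between 6.04 and 6.38 in DKO. These levels were low, at percentiles 34.0 to 42.3 of the transcript clusters of an array. The regional difference of Tac2 was 1.66 ± 0.111 (SE), and its SD in the hippocampus was 0.08 in WT and 0.14 in DKO.

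Penk and Pdyn encode opioid peptides, Penk those that act on the delta and mu receptors and Pdyn those that act on the kappa receptor. Penk in WT amygdala measured 12.10, 12.05, 12.25, 11.78 and 11.81 (mean 12.00 ± 0.20, SD, n = 5). In DKO amygdala it measured 11.63, 11.80, 11.60, 11.59 and 11.97 (11.72 ± 0.17, n = 5). As for Tac1, the WT arrays at baseline, 0 hr and 1 hr lay above all DKO arrays. Hippocampal Penk was 9.73, 9.87, 9.65, 10.67 and 9.80 in WT (9.94 ± 0.41, n = 5), and 9.35, 9.34, 9.52, 9.51 and 9.92 in DKO (9.53 ± 0.23, n = 5). The WT 48 hr array stood alone above the other 9 hippocampus arrays. The regional difference of Penk was 2.12 ± 0.105 (SE).

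Pdyn had a regional difference of 0.50 ± 0.0663 (SE). It lay between 7.72 and 8.01 in WT amygdala and between 7.51 and 8.07 in DKO amygdala. The hippocampal values were 7.06 to 7.51 in WT and 7.21 to 7.46 in DKO. The lowest amygdala array, DKO 1 hr, fell just under the highest hippocampus array, WT 0 hr.

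Grp, a growth-factor-like peptide known for limiting fear through inhibitory neurons of the amygdala, measured 9.73, 9.79, 9.70, 9.72 and 9.22 in WT amygdala (mean 9.63 ± 0.23, SD, n = 5). In DKO amygdala it measured 9.44, 9.65, 9.94, 9.26 and 10.06 (9.67 ± 0.33, n = 5). The WT 1 wk array fell below the other WT arrays, and the DKO 1 wk array was the highest of the 10. In the hippocampus Grp read 7.60, 7.62, 7.47, 8.33 and 7.32 in WT (7.67 ± 0.39, n = 5), and 7.86, 7.17, 7.59, 7.12 and 7.61 in DKO (7.47 ± 0.32, n = 5). The WT 48 hr array was the highest here too. The regional difference of Grp was 2.08 ± 0.123 (SE).

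Trh encodes the releasing hormone of the thyroid axis, which also acts as a transmitter outside the hypothalamus. In WT amygdala it stood at 6.47, 6.77, 6.46, 6.48 and 6.69, and in DKO amygdala at 6.22, 6.69, 6.35, 6.78 and 6.39. In the hippocampus it stood at 5.67, 6.28, 6.10, 6.02 and 6.24 in WT, and between 5.96 and 6.21 in DKO. Trh thus ranked low on the arrays, at percentiles 35.7 to 53.0 in the amygdala and 26.8 to 37.5 in the hippocampus. The regional difference was 0.46 ± 0.0771 (SE), and the lowest amygdala array, DKO baseline, lay under the highest hippocampus array, WT 0 hr. Cartpt, the source of peptides tied to appetite and reward, was 8.34 to 8.58 in WT and 8.19 to 8.80 in DKO amygdala. In the hippocampus Cartpt was 7.52 to 7.89 in WT and 7.18 to 7.74 in DKO, with a regional difference of 0.91 ± 0.0751 (SE).

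In the order of the 4 group means, both amygdala groups stood above both hippocampus groups for each of the 8 genes. Neighbouring groups that came from different regions did not overlap. For Pdyn and Trh the overlap lay between DKO amygdala and WT hippocampus, and their other pairs of groups from different regions were separate. The order of WT and DKO within a region was not settled for any gene, since the arrays of the 2 genotypes overlapped in both regions for all 8. For Tac1 and Penk in the amygdala and for Cartpt in the hippocampus the WT mean exceeded the DKO mean by more than the larger SD, and for the other pairs of genotypes it did not.

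None of the precursors passed the limit for a difference between DKO and WT. DKO minus WT was fitted separately in either region, with 5 arrays per genotype (limma, adjusted p of 0.1). In the amygdala 0 of the 8 genes passed, where 0.097% of all transcript clusters did, and in the hippocampus 0 of 8, where 0.118% did. With so few clusters called, a count of 0 among 8 genes is not read as a result about them. At an unadjusted p of 0.05, 2 passed in each region. The share of all transcript clusters under that p is not given, so nothing is read from this count. In the amygdala the 2 genes were Tac1, at -0.55 ± 0.192 (SE, limma adjusted p = 0.646), and Penk, at -0.28 ± 0.103 (limma adjusted p = 0.646). The effects of the other 6 in the amygdala ran from -0.28 for Tac2 to 0.04 for Cartpt.

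In the hippocampus the 2 genes were Penk, at -0.41 ± 0.162 (SE, limma adjusted p = 0.404), and Cartpt, at -0.23 ± 0.0966 (limma adjusted p = 0.409). For Penk, 4 of the 5 DKO arrays lay below all WT arrays, and without the WT 48 hr array the effect was -0.23 (limma adjusted p = 0.350). Nts had the largest hippocampal effect, at -0.42 ± 0.279 (SE), with an adjusted p of 0.556 by limma, and -0.22 without the same array. The genotype effect differed between the regions for 0 of the 8 genes (limma, adjusted p of 0.05), against 0.0104% of all transcript clusters. Tac1 came nearest, with an effect 0.65 ± 0.260 (SE) higher in the hippocampus than in the other region (limma adjusted p = 0.256).

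Levels of striatal genes moved with Tac1 and Penk in the amygdala, and less with Pdyn. The mean of 19 genes of striatal projection neurons, among them the dopamine receptors Drd1 and Drd2 and the phosphatase regulator Ppp1r1b, was 8.06, 7.84, 7.999, 7.71 and 7.64 from baseline to 1 wk in WT amygdala. It lay between 7.51 and 7.67 in DKO amygdala, and between 7.07 and 7.14 on all hippocampus arrays. Of these 19 genes 14 passed as higher in the amygdala, as did 8.78% of all transcript clusters. For the genotype effect 0 passed in either region, with a median of -0.31 in the amygdala against -0.01 over all transcript clusters. Drd3, Gpr6, Syndig1l and Six3 had higher means in DKO than in WT amygdala, and the rest of the list had lower ones. Over the 10 amygdala arrays, which share 1 normalization, the list correlated with Tac1 at r = 0.91 and with Penk at r = 0.90. With Pdyn its r was 0.29, and Tac1 correlated with Penk at r = 0.89. The part of this list in the lower DKO levels of Tac1 and Penk was not tested.

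**Figure D2:**
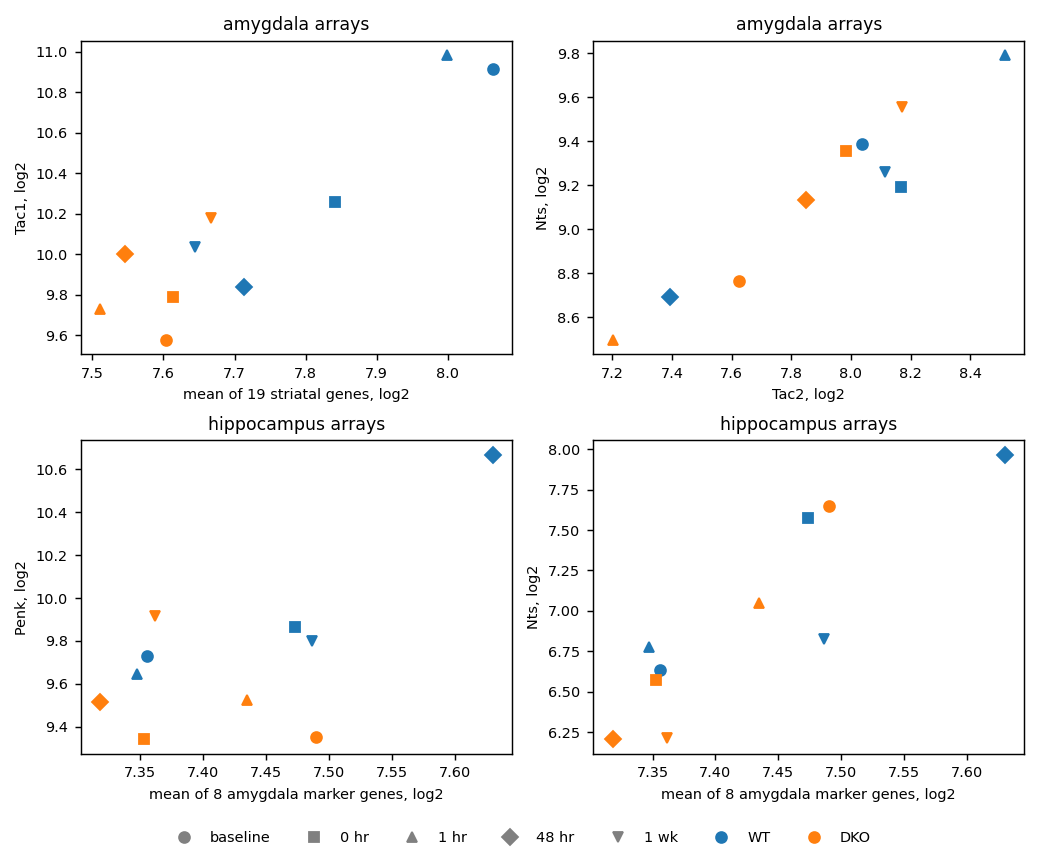
Log2 levels of precursors against marker lists or another precursor, 1 point per array, WT in blue and DKO in orange, with Tac1 against the mean of 19 striatal genes and Nts against Tac2 on the amygdala arrays, and Penk and Nts against the mean of 8 amygdala genes on the hippocampus arrays. Tac1 rises with the striatal mean (r = 0.91) and Nts with Tac2 (r = 0.96), and the WT 48 hr array is the highest point of both hippocampus panels.

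CF learning was followed by no called change in the 8 precursors when the 4 groups of region and genotype served as replicates of a time point. At each of the 4 time points 0 of 8 passed (limma, adjusted p of 0.05). Of all transcript clusters 0.00347% passed at 0 hr and at 1 wk, 0.0243% at 1 hr and 0 at 48 hr, where 1036 had an unadjusted p under 0.05. So rare a call gives the count of 0 among 8 no reading about these genes. Trh had the lowest p, with a level at 0 hr that was 0.38 ± 0.0999 (SE) above baseline (limma adjusted p = 1.00). Its 0 hr array was above the baseline array in 4 of 4 groups, by 0.31 in WT amygdala, 0.47 in DKO amygdala, 0.61 in WT hippocampus and 0.14 in DKO hippocampus. At 1 wk the Trh difference was 0.24 ± 0.0999 (SE, limma adjusted p = 1.00). None of the other 7 had an unadjusted p under 0.05 at any time point.

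The change from baseline was then compared between the genotypes, with the regions as replicates. At each time point 0 of 8 precursors and 0 of all transcript clusters passed (limma, adjusted p of 0.05), and between 554 and 5152 transcript clusters had an unadjusted p under 0.05. Cartpt at 1 wk had the lowest adjusted p of the 8. Its change in WT was 0.24 in the amygdala and 0.37 in the hippocampus, against -0.43 and -0.34 in DKO, which gave a difference of -0.69 ± 0.214 (SE, limma adjusted p = 0.177). Grp had differences of opposite sign at the later time points. At 1 wk its changes were -0.51 and -0.28 in WT and 0.62 and -0.25 in DKO, a difference of 0.58 ± 0.285 (SE, limma adjusted p = 0.298). At 48 hr they were -0.01 and 0.74 in WT and -0.18 and -0.75 in DKO, a difference of -0.83 ± 0.285 (SE, limma adjusted p = 0.331).

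For a single region and genotype, a change sets 1 array against 1 baseline array, so it has no test, and the 4 changes of a group share their baseline array. Among the 8 precursors 21 of the 128 changes went past 1.5-fold (16.4%), against 1.15% of all changes over all transcript clusters. Since the genes were picked with results of these arrays known, nothing is read from the contrast of these shares. Nts gave 9 of its 16 changes, 4 up and 5 down. Tac1 gave 5, Grp gave 4, and Tac2, Penk and Trh gave 1 each, while Pdyn and Cartpt had none past that limit.

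**Figure D3:**
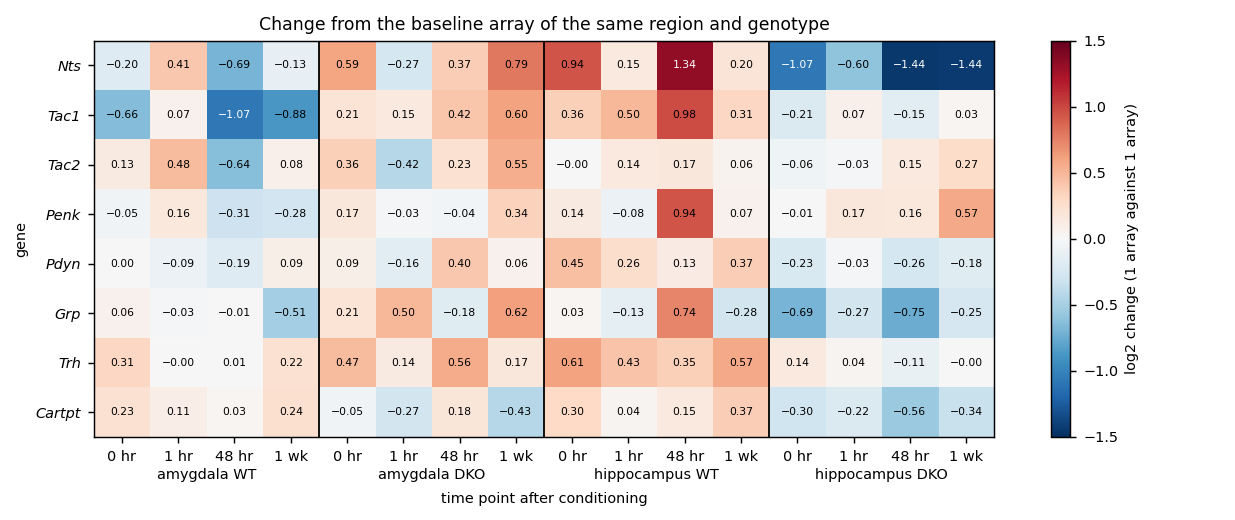
Log2 change of each precursor (rows) on 1 array against the baseline array of the same region and genotype (columns, in blocks of 4 time points), coloured from blue (lower) to red (higher). The WT hippocampus at 48 hr shows the deepest red, with Nts at 1.34, and the DKO hippocampus holds the lowest Nts values, -1.44 at 48 hr and at 1 wk.

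Against their own baseline arrays, the hippocampal Nts values lay above baseline on all 4 later WT arrays and below it on all 4 later DKO arrays. The WT changes from 0 hr to 1 wk were 0.94, 0.15, 1.34 and 0.20. The DKO changes were -1.07, -0.60, -1.44 and -1.44. The baseline arrays themselves differed, at 6.63 in WT and 7.65 in DKO. Against the mean of both baseline arrays the Nts values were 0.43, -0.36, 0.83 and -0.31 in WT and -0.57, -0.09, -0.94 and -0.93 in DKO, so the WT direction at 1 hr and 1 wk turned. With that reference the number of changes past 1.5-fold among all 8 precursors went from 21 to 11. The counts over all transcript clusters moved with the reference too, from 1182 to 105 in the WT amygdala at 1 wk and from 167 to 329 at 1 hr. Nothing about the 8 genes is thus read from the drop.

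At 48 hr in the WT hippocampus 4 of the 8 precursors were past 1.5-fold and all 4 were higher, Nts by 1.34, Tac1 by 0.98, Penk by 0.94 and Grp by 0.74 on the log2 scale. Of all transcript clusters 1.24% were past that limit there in either direction, and 1.08% were higher. On the same array the mean of 8 amygdala markers was 7.63, against 7.32 to 7.49 on the other 9 hippocampus arrays. Over the 10 hippocampus arrays this marker mean correlated with Nts at r = 0.89, with Grp at r = 0.80, with Penk at r = 0.67 and with Tac1 at r = 0.59, and for Cartpt, which was not past the limit on that array, r was 0.69. Against the mean of both baseline arrays the same 4 precursors were past the limit, at 0.83 for Nts, 0.69 for Tac1, 1.13 for Penk and 0.60 for Grp. With that reference 0.662% of all transcript clusters were past it in either direction, 153 of them higher. The part of the amygdala marker mean in the higher precursor levels was not tested.

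At 48 hr in the WT amygdala 3 of the 8 were past the limit, all lower, Tac1 at -1.07, Nts at -0.69 and Tac2 at -0.64, where 3.32% of all transcript clusters were past it in either direction and 1.84% were lower. With the mean of both baseline arrays as the reference 0 of the 8 were past the limit there (Tac1 -0.41, Nts -0.38 and Tac2 -0.44), and 0.347% of all transcript clusters were. With that reference 3 were higher at 1 hr in the WT amygdala, Tac1 by 0.74, Nts by 0.72 and Tac2 by 0.68. Of all transcript clusters 1.14% were past the limit at that point in either direction, 197 of them higher. Against their own baseline array 0 of the 8 were past it at 1 hr. The mean of 12 hippocampus markers on the WT amygdala 48 hr array was 7.86, against 7.43 to 7.69 on the other 9 amygdala arrays. Its part in the precursor levels on that 48 hr array was not tested. Without both WT 48 hr arrays, a setting chosen after the data were seen, the regional difference was 2.39 for Nts, 2.29 for Tac1, 2.24 for Penk and 2.15 for Grp. At 1 wk in the DKO amygdala Nts (0.79), Grp (0.62) and Tac1 (0.60) were higher, where 1.27% of all transcript clusters were past the limit and 0.839% were higher. Against the mean of both baseline arrays 0 of the 8 and 0.295% of all transcript clusters were past it there, with Nts at 0.48, Grp at 0.47 and Tac1 at -0.07. After a further quantile normalization 1 was past it at 1 wk, where 1.42% of all transcript clusters were, and 3 were higher at 48 hr in the DKO amygdala. At 48 hr 1.13% of all transcript clusters were then past it in either direction, 207 of them higher. Before that normalization 0 of the 8 were past it at 48 hr, and the median change of all transcript clusters had been -0.13. In WT amygdala Tac1 also lay lower at 0 hr (-0.66) and at 1 wk (-0.88), and near its baseline at 1 hr (0.07).

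**Figure D4:**
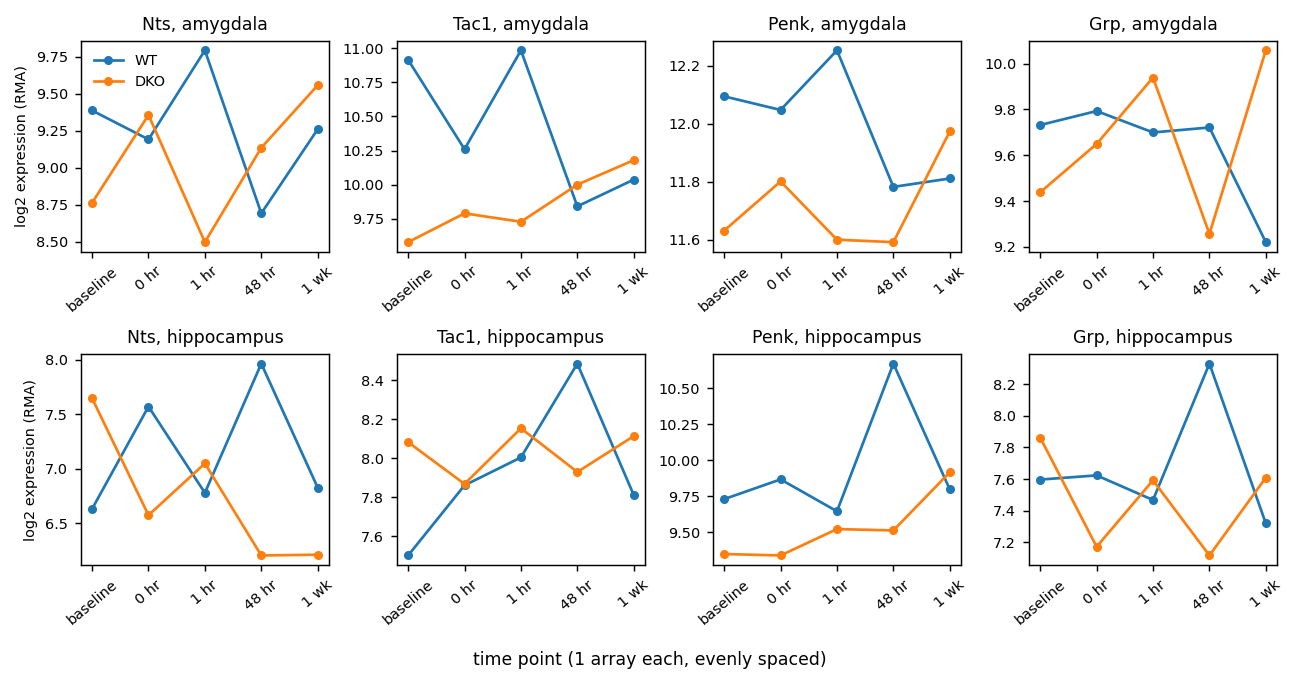
Log2 expression (RMA) of Nts, Tac1, Penk and Grp at baseline, 0 hr, 1 hr, 48 hr and 1 wk, evenly spaced on the x axis, with 1 array per point, WT in blue and DKO in orange, amygdala above and hippocampus below. In the WT hippocampus all 4 genes have their highest value at 48 hr, 7.97 for Nts, 8.49 for Tac1, 10.67 for Penk and 8.33 for Grp.

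The precursors did not follow each other alike across arrays. On the 10 amygdala arrays Nts was most like Tac2 of all genes with their own symbol (r = 0.96), and next came 1810037I17Rik (0.95) and the protocadherin Fat3 (0.93). The genes nearest to Tac2 were Nts, Fat3 (0.95) and Hs3st5 (0.92), an enzyme that modifies heparan sulfate. Those nearest to Tac1 were Sytl5 (0.97), the striatal G protein subunit Gnal (0.97) and Mme (0.96), the membrane peptidase neprilysin that cleaves enkephalins and substance P. Grp and Cartpt ran against each other in the amygdala (r = -0.84), and Pdyn and Trh went together in both regions (r = 0.75 in the amygdala and 0.78 in the hippocampus).

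In the hippocampus Nts was most like Rxfp1 (r = 0.98), the relaxin receptor, Tshz2 (0.96) and Pipox (0.95). Penk was most like Mir381 (0.93), the transcription factor Meis2 (0.93) and 4933432I09Rik (0.91), and Grp was most like Mfsd13a (0.95), Zfp661 (0.90) and the transcription factor Etv1 (0.90). Meis2 and Etv1 are both on the list of amygdala markers. All of these are descriptions over 10 arrays that share 1 normalization, and the nearest genes were picked out of all genes for their likeness.

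Receptors of the peptides were read from a list of 12 genes. Between the regions 6 of 12 passed as higher in the amygdala and 2 as lower (limma, adjusted p of 0.05), and 4 did not. Among all transcript clusters 8.78% passed as higher and 17.7% in either direction. The median difference of the 12 was 0.23 against 0.02 over all transcript clusters. This list and those below were drawn up with results of these arrays known, so their regional values are a description. The largest difference was that of Trhr, the receptor of the Trh peptide, with 7.36 in the amygdala and 5.61 in the hippocampus (difference 1.75 ± 0.101, SE). Next came Oprk1, the kappa receptor of the Pdyn peptides, at 6.86 and 5.55 (1.31 ± 0.0850). Thus the genes with the smallest regional differences among the 8 precursors, Trh and Pdyn, each had 1 of the 2 receptors with the largest. This pairing was picked out after the values were seen, and Trhr2, also listed for the Trh peptide, did not pass.

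The substance P receptor Tacr1 was 0.54 ± 0.0777 (SE) higher in the amygdala, the mu receptor Oprm1 0.47 ± 0.0501, the neurokinin B receptor Tacr3 0.34 ± 0.0517 and the neurotensin receptor Ntsr1 0.32 ± 0.0589. The other neurotensin receptors were lower there, Ntsr2, which glia are known to express, at -0.30 ± 0.0440 (SE) and the sorting receptor Sort1 at -0.43 ± 0.0656. The delta receptor Oprd1 (0.12), Grpr, the receptor of the Grp peptide (0.13, limma adjusted p = 0.0834), Tacr2 (0.10) and Trhr2 (0.05) did not pass. No receptor passed for the genotype effect in either region, for the difference between regions in it, or for any change after CF. Grpr in the hippocampus had the lowest unadjusted p for the genotype effect, at -0.25 (limma adjusted p = 0.232). For the CART peptides no receptor was on the list.

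**Figure D5:**
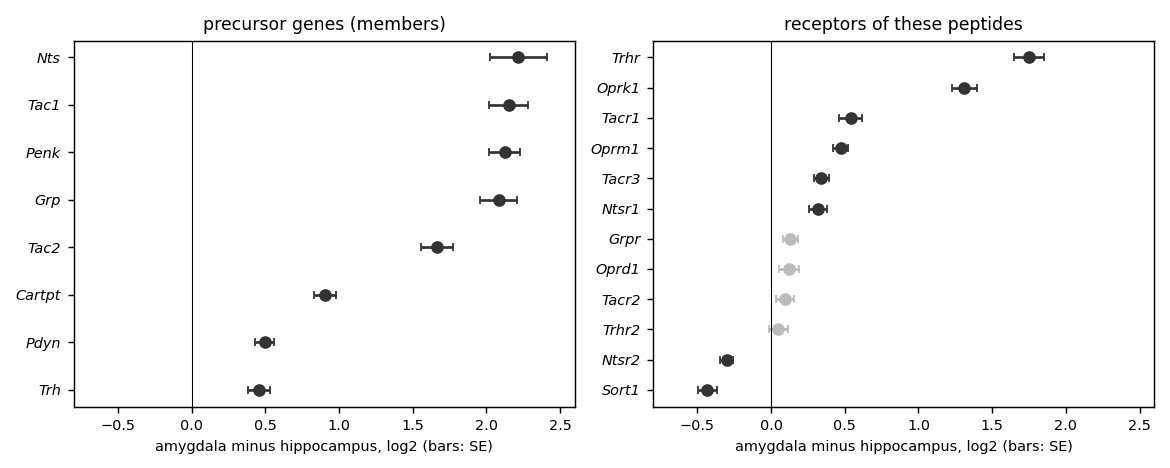
Difference between regions (amygdala minus hippocampus, log2, mean over genotypes, bars SE) for the 8 precursors on the left and 12 receptors on the right, where grey points did not pass an adjusted p of 0.05. All 8 precursors lie to the right of 0, while Ntsr2 and Sort1 lie to its left and Trhr and Oprk1 reach 1.75 and 1.31.

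Genes of the machinery that turns a precursor into peptide were read from a list in the same way. Of 14 measured genes for processing and dense core vesicles 8 passed as higher in the amygdala and 3 as lower, with a median difference of 0.20. The shares over all transcript clusters were 8.78% as higher and 17.7% in either direction. Pcsk1, the prohormone convertase that makes the first cuts, was 1.38 ± 0.0931 (SE) higher. The vesicle priming factor Cadps2 was 0.52 ± 0.0861 higher, and the vesicle membrane proteins Ptprn2 0.50 ± 0.0589 and Ptprn 0.45 ± 0.0560. Among those lower were the granin Chgb, at -0.42 ± 0.0504 (SE), and the amidating enzyme Pam, at -0.15 ± 0.0479.

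Of 9 measured genes for peptidases that end the signal, 0 passed as higher in the amygdala and 2 as lower, with a median difference of -0.03, where 17.7% of all transcript clusters passed in either direction. Trhde, which degrades the Trh peptide outside the cell, was lower, at -1.30 ± 0.0796 (SE), and the aminopeptidase Anpep, at -0.34 ± 0.0471. On the means of the arrays, Trh and Trhr thus read higher and Trhde lower in the amygdala, a grouping picked out after the values were seen. Trh ranked low on the arrays and overlapped between the regions, and Trhr2 did not pass.

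Of 33 other measured neuropeptide precursors 10 passed as higher in the amygdala and 0 as lower, with a median difference of 0.09. The share of all transcript clusters that passed as higher was 8.78%. The largest differences were those of Sst (somatostatin, 1.15 ± 0.0655, SE), Crh (corticotropin-releasing hormone, 0.94 ± 0.111), Gal (galanin, 0.73 ± 0.127) and Vip (0.66 ± 0.0727). The 8 precursors had a median of 1.87, which is not set against the 33, since all these genes were listed with results of the same arrays known. No gene of the processing, degradation and other precursor lists passed for the genotype effect or for a change after CF.

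Neighbouring tissue was read from further lists. Beside their counts, 17.7% of all transcript clusters passed between the regions in either direction and 8.78% as higher in the amygdala. Medial habenula genes passed as higher in the amygdala for 1 of 9 and as lower for 3, and hypothalamus genes as higher for 3 of 12 and as lower for 0. Their mean levels lay between 6.05 and 6.37 for the habenula and between 6.19 and 6.51 for the hypothalamus on the 20 arrays. Over the amygdala arrays the hypothalamus mean correlated with Tac1 at r = -0.87 and with Penk at r = -0.72, and the habenula mean with Tac1 at r = -0.66. Over the hippocampus arrays Cartpt correlated with the hypothalamus mean at r = 0.85 and with the habenula mean at r = 0.74. Its r there was 0.94 with the mean of the other neuropeptide precursors and 0.88 with that of the receptors. The habenula and hypothalamus means lay under the lowest array median, 6.64. Thalamus genes passed as lower in the amygdala for 10 of 12, with means of 7.44 to 7.90 in WT and 7.78 to 8.18 in DKO hippocampus, and over the hippocampus arrays their mean correlated with Penk at r = -0.64 and with Grp at r = -0.62. For the hippocampal genotype effect 1 of the 12 passed as higher in DKO, where 0.118% of all transcript clusters passed. The median effect of the list was 0.29, against -0.02 over all transcript clusters. For the difference between regions in that effect 1 of the 12 passed, against 0.0104% of all. Of 11 choroid plexus genes 0 passed between the regions, and their mean ranged from 7.02 to 8.59 between arrays, with correlations to the 8 precursors between -0.44 and 0.23. The part of these tissues in the precursor levels was not tested.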

How the data were processed

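The authors pooled RNA of 5 to 10 mice per array, hybridized 20 Affymetrix Mouse Gene 1.0 ST arrays and, in the Affymetrix Expression Console, corrected the background, quantile-normalized and summarized the probes by RMA, so the deposited values are on a log2 scale. The version of that software and the genome build of the array annotation are not given in the sources used here. RMA aligns the probe signals of all arrays, so values are relative to the rest of an array, while the medians of the summarized values still ran from 6.64 to 6.83.

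Values of a gene are those of a cluster whose annotation holds its symbol and no other (21789 of 28853 clusters, with 1621 paired with several symbols and 5443 with none). The 8 precursors and all gene lists were chosen with earlier results of these data known. No filter was applied and no array was left out.

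All transcript clusters entered linear models in R 4.3.3 (limma 3.58.1, functions lmFit and eBayes), with Benjamini-Hochberg adjustment over all of them within a comparison. The limit was an adjusted p of 0.1 for the genotype effect, as in the study's methods, and 0.05 otherwise. The 5 time points of a group were its replicates, except in the changes after CF, where the groups were. The code was tested on simulated data with known changes. Changes on single arrays were counted at 1.5-fold with no test. All 8 precursors and 12 receptors were named, of other lists at most the 4 called genes of largest difference per comparison plus single genes chosen after their values were seen (Chgb, Pam, Adcy1, Adcy8 and the examples of striatal genes), and for each precursor spanning more than 1 on the log2 scale in a region the 3 genes of highest r over its 10 arrays. Promoters came from a RefSeq table (GRCm38.p6). Counts and plots used Python 3.11.15 with pandas 2.3.3, numpy 2.4.6 and matplotlib 3.10.9.

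The alternatives were array weights, eBayes with a trend and robust variance, each array centred on its median, quantile normalization repeated, only clusters above the median level, the methods' t-test with Benjamini-Hochberg adjustment, all 20 arrays in 1 fit, time points as a replicate block, fits without the baseline arrays, another baseline reference, a 2-fold limit and each array left out in turn. The fits without both WT 48 hr arrays were added after the data were seen. The number of arrays limits the precision. RT-PCR, behaviour and AC8 rescue mice were not analysed here.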

Additional observations from a re-analysis of the deposited data

Results flagged for a closer look

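Of 32 groups of 5 arrays (8 precursors, 2 regions, 2 genotypes), 2 held an array far from the others by Dixon's test, which chance flags in about 1 of 20 groups. Penk in the WT hippocampus at 48 hr stood at 10.67, and its gap to the next array was 0.784 of the range of that group. Grp in the WT amygdala at 1 wk stood at 9.22, with a gap of 0.837 of the range.

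For 3 precursors in the hippocampus, every WT array after CF lay above its baseline array and every DKO array below its own. From 0 hr to 1 wk the median change of all transcript clusters there was 0.07, 0.03, 0.06 and 0.08 in WT. In DKO it was -0.01, -0.004, -0.09 and -0.01, and the share of all clusters with the pattern of these precursors was not counted. The mean change differed by 1.79 on the log2 scale for Nts, by 0.48 for Pdyn and by 0.57 for Cartpt. This difference was not tested within the hippocampus, where each genotype has 1 baseline array that all 4 changes share. Against the mean of both baseline arrays, WT values turned below the reference for Nts at 1 hr (-0.36) and 1 wk (-0.31), for Cartpt at 1 hr (-0.07) and for Pdyn at 48 hr (-0.08), and DKO values turned above it for Pdyn at 1 hr (0.17) and 1 wk (0.02).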

How the results depend on the processing

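For the genotype effect, its difference between the regions, the change after CF and how that change differed between genotypes, 0 of the 8 precursors passed under any alternative that was run, each array left out in turn included (0 to 0). The regional count, 8 (7 under the filter above the median level, which removes Trh, and 8 to 8 with 1 array left out), may be fixed by the choice of the genes and says nothing about stability. The genotype difference at 48 hr was not run without both WT 48 hr arrays. With time points as a replicate block, the check of the paired arrays, the regional count was again 8 and the genotype and region by genotype counts 0. The number of single-array changes past 1.5-fold went from 21 to 11 with the mean of both baseline arrays as the reference and to 5 at a 2-fold limit. The totals over all transcript clusters under these settings are not given, so nothing about the 8 genes is read from these numbers.

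Some small effects changed sign, and the cause was not tested. The genotype effect in the amygdala was -0.0317 for Cartpt with array weights and -0.0142 without the baseline arrays. In the hippocampus, without the baseline arrays, it was -0.0743 for Pdyn, -0.0242 for Tac1 and -0.0713 for Trh. Without both WT 48 hr arrays it was -0.0076 for Pdyn, and the difference between regions in the effect was 0.13 for Nts and 0.10 for Penk. With 1 array left out, the ranges that crossed 0 were, for the amygdala effect, -0.0295 to 0.12 for Cartpt and -0.0681 to 0.14 for Grp, for the hippocampus effect, -0.0392 to 0.0729 for Pdyn, -0.0110 to 0.23 for Tac1 and -0.0748 to 0.0775 for Trh, and for their difference, -0.0022 to 0.30 for Tac2 and -0.23 to 0.0471 for Penk. The Tac1 effect in the amygdala stayed between -0.69 and -0.41.

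The counts over all transcript clusters moved more. The hippocampal genotype effect called 25 without the baseline arrays and 73 without the WT hippocampus 1 hr array, against 34, and its difference between regions 1 to 5, against 3. The change at 0 hr called 0 to 3, against 1, and at 1 hr 2 without the WT hippocampus baseline array and 47 with array weights, against 7. The change at 48 hr called up to 1, and at 1 wk 0 or 1. The genotype difference called up to 2 at 48 hr, and 854 at 1 wk without the WT hippocampus baseline array, where the main count was 0.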
